A study of Mus musculus with 12 samples.

Results

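The expression of 37 genes known as astrocyte genes was examined in auditory cortex from acute brain slices. The genes form a fixed list of names, chosen with earlier results of these data known, and all 37 were present among the 20989 gene loci of the deposited files. For the comparison, the 5 genes Gfap, Vim, Serpina3n, Lcn2 and Cd44, which are known to rise in injured or inflamed tissue, were called reactive. The other 32 were called homeostatic, which here means only the rest of the list. The slices came from 6 C57bl6/J mice (4 weeks old) and each slice was divided at the midline. One hemisphere of each mouse stayed in control artificial cerebrospinal fluid (aCSF) for 1 h. The other was placed for 1 h in cocktail aCSF, that is, the same fluid with 50 µM bicuculline, 100 µM norepinephrine, 50 µM carbamoylcholine, 100 µM dopamine, 40 µM ascorbic acid and 100 µM serotonin. Both hemispheres had first recovered for 15 min in a choline-based buffer and for 45 min in aCSF, so every control value is also that of cut tissue. By the methods of the study, both also rested for 1 h in aCSF after the incubation, a step that the labels do not mention. The data are 12 libraries of poly-A RNA, 6 control and 6 cocktail, paired by mouse, and the question put to them was which genes answer to this mixture of neuromodulators with a block of inhibition.

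Astrocytes are the glial cells that take up glutamate and potassium released by neurons, hand glutamine back, and line blood vessels with end-feet. They are coupled to each other by gap junctions. They carry receptors for norepinephrine and other neuromodulators, and after injury they become reactive, a state known for more Gfap and Vim and, when strong, for Lcn2 and Serpina3n.

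Levels are given in FPKM, which counts fragments relative to transcript length and to 1000000 fragments on the protein coding genes of a library, so levels of different genes can be set side by side. The control libraries held 10600193 to 19768184 reads on genes and the cocktail libraries 13539422 to 17506709. The control library of mouse 1 stood apart. Tests covered the 12032 loci whose mean reached 1 FPKM. Of these, 50.1% had their lowest control value in this library, against 7.81% to 15.4% in each of the other control libraries. Of the 37 astrocyte genes, 17 had theirs there, and without mouse 1 the log2 fold change of 23 of the 37 moved by over 1.5 times or changed sign, so values without it are given beside the results they touch. None of these 23 was called.

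In the control slices the astrocyte genes covered a wide range of levels, with 7 genes at a mean of 100 FPKM or more, 23 between 10 and 100 and 7 under 10 (the median gene was at 21.4 FPKM). All 37 passed the filter on low values, and each had a mean above 1 FPKM in both conditions. The most abundant was Apoe, the main lipoprotein of the brain, at 548 ± 34.0 FPKM (SD, n = 6). It was followed by Glul, the glutamine synthetase (415 ± 37.3), by Clu, a secreted chaperone (325 ± 18.2), by Slc1a2, the main glutamate transporter of the cortex (290.1 ± 34.5), and by Aldoc, an aldolase of glycolysis (194 ± 18.2). The control values of Apoe all lay above those of Glul, whereas the ranges of Glul and Clu, of Clu and Slc1a2 and of Slc1a2 and Aldoc overlapped, and so did those of Aldoc and Atp1b2, a subunit of the sodium pump (188 ± 9.32). Within every control library, however, Glul was above Clu, Clu above Slc1a2 and Slc1a2 above Aldoc. Only the order of Aldoc and Atp1b2 differed between libraries. The 5 lowest were Agt, the angiotensin precursor (2.90 ± 0.255), Cd44, a hyaluronan receptor (1.80 ± 0.515) and Lcn2, a secreted siderophore-binding protein (1.32 ± 0.530), together with Bmpr1b, a BMP receptor (3.28 ± 0.428), and Serpina3n, a protease inhibitor (5.57 ± 1.53). Gfap, the intermediate filament by which astrocytes are stained, was at 52.2 ± 8.94 FPKM and Vim, the other filament of these cells, at 15.6 ± 1.91.

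**Figure D1:**
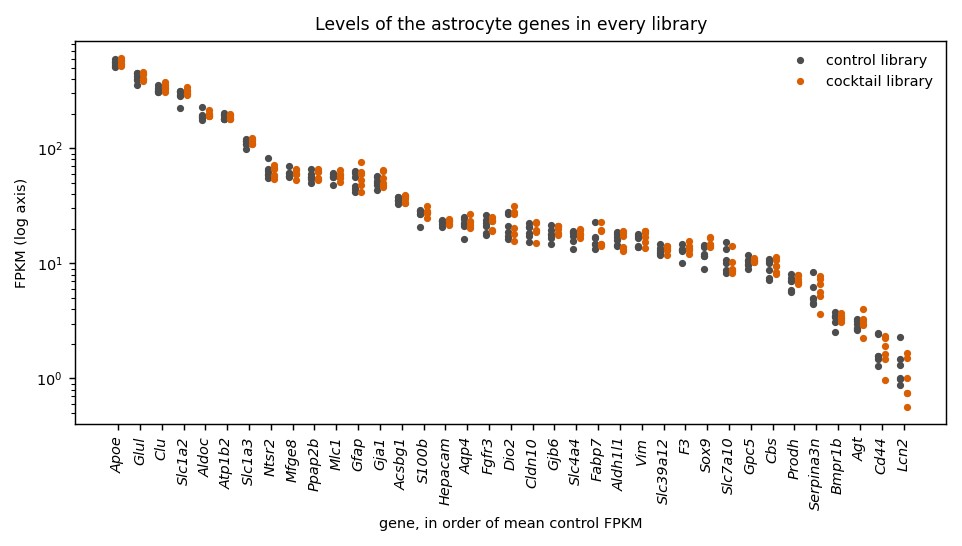
FPKM on a log axis of each of the 37 astrocyte genes in the 6 control and the 6 cocktail libraries (1 point per library), in order of the mean control level. The order runs from Apoe at 548 FPKM to Lcn2 at 1.32 FPKM, and the control and cocktail points of every gene overlap in range.

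After 1 h in the cocktail and the rest in aCSF, 1 of the 37 genes was higher than in control and none was lower at an adjusted p under 0.05 (limma on log2(FPKM + 1), mouse as a block, Benjamini-Hochberg adjustment over all loci tested). Over all 12032 loci tested, 1.50% were called in either direction and 1.22% as higher, so 1 of 37 is no more than about what this background gives. At an unadjusted p under 0.05 there were 4 of the 37 genes, against 8.05% of all loci. The gene called was Sox9. For all 37 genes the ranges of both conditions overlapped, and the share of loci without overlap was 0.914% over the whole table.

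Sox9, a transcription factor that sets the glial fate and stays on in mature astrocytes, lies on chromosome 11 of mm10 from 112782210 to 112787757, and none of its exons overlaps an exon of another gene in GENCODE M21. Its FPKM in control and cocktail hemispheres was 8.96 and 14.4 in mouse 1, 11.6 and 14.2 in mouse 2, and 12.01 and 14.0 in mouse 3. In mice 4, 5 and 6 the pairs were 13.7 and 16.5, 14.6 and 17.0, and 11.5 and 14.8. The cocktail hemisphere was thus the higher one in all 6 mice, although the highest control value, in mouse 5, lay above the lowest cocktail value, in mouse 3. The mean went from 12.1 ± 1.96 to 15.2 ± 1.27 FPKM (SD, n = 6 each), which is 25.6% more, and the log2 fold change was 0.32 (standard error 0.061, 95% interval 0.18 to 0.45, adjusted p = 0.0235 from limma). An exact two-sided permutation test that flips signs over mice gave p = 0.03125, its minimum with 6 pairs. Any gene with the same sign in all 6 mice reaches this value, so it restates that count. Each library held 529 to 1133 reads of Sox9. The within-mouse difference on the log2 scale was 0.63 in mouse 1 and between 0.20 and 0.34 in the other mice, and without mouse 1 the log2 fold change was 0.26 with an adjusted p of 0.0125 from limma. The call was lost when mouse 2, 3, 4 or 6 was left out (adjusted p 0.0556 to 0.0758 from limma) and when the mouse was not a block (0.214), with the log2 fold change between 0.31 and 0.34 in these fits.

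**Figure D2:**
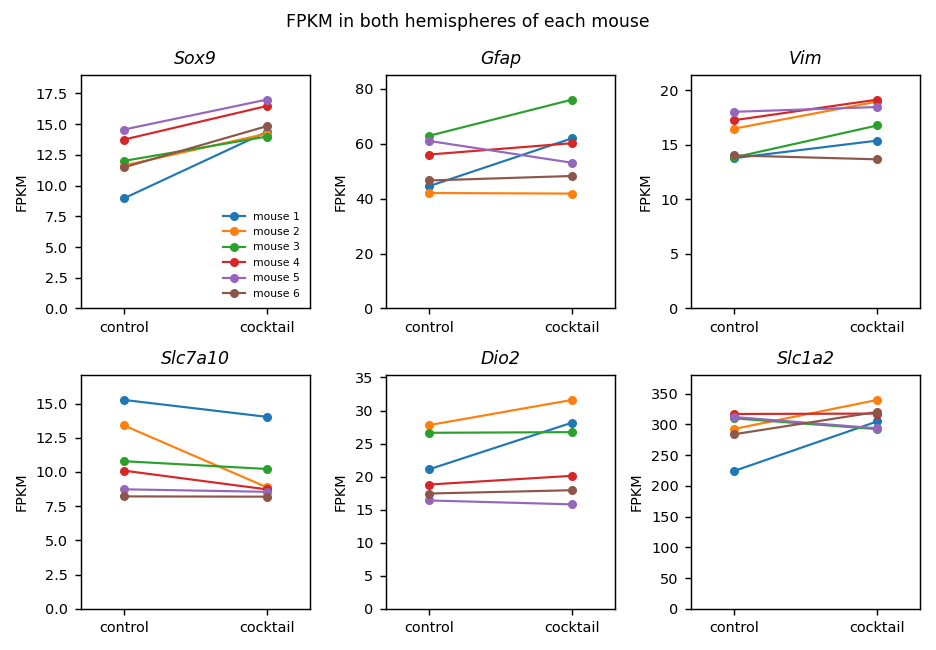
FPKM of Sox9, Gfap, Vim, Slc7a10, Dio2 and Slc1a2 in the control and the cocktail hemisphere of each mouse (lines join both hemispheres of 1 mouse, and every axis starts at 0). All 6 lines rise for Sox9, all 6 slope downward for Slc7a10 (a difference that was not called), and the lines of the other genes run in both directions.

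The genes of glutamate and amino acid handling showed 0 calls of 6 by limma and 1 gene, Slc7a10, at an unadjusted p under 0.05, with log2 fold changes from -0.16 to 0.11 on the log2(FPKM + 1) scale. Slc1a2 had 224, 301 and 317 FPKM as its lowest, median and highest control value and 292, 311 and 340.0 in the cocktail. The low value is mouse 1, and the other 5 control libraries lie between 284 and 317, within or close to the cocktail range. The log2 fold change was 0.11 (95% interval -0.037 to 0.26, adjusted p = 0.78 from limma) and 0.044 without mouse 1. Glul, next in the same cycle because it turns glutamate into glutamine, had 357, 416 and 453 FPKM in control and 386, 421.0 and 458 in the cocktail (log2 fold change 0.027, adjusted p = 0.943 from limma), and 3 mice were higher and 3 lower. Slc1a3, the second glutamate transporter, had a log2 fold change of 0.039 (-0.0055 without mouse 1), Prodh, the first enzyme of proline breakdown, 0.083 and Cbs, which makes cystathionine, 0.061 (0.034 without mouse 1).

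Slc7a10, a transporter of small neutral amino acids that include serine, was the one astrocyte gene that was lower in the cocktail hemisphere of all 6 mice. Of all loci tested, 2.66% were lower and 3.64% were higher in 6 of 6 mice, and Sox9 was the one astrocyte gene of the second kind. The lowest, median and highest FPKM of Slc7a10 was 8.22, 10.4 and 15.3 in control and 8.20, 8.804 and 14.0 in the cocktail, so the groups overlapped over nearly their whole range. In mice 1 to 6 the within-mouse log2 differences were -0.11, -0.54, -0.072, -0.19, -0.028 and -0.0030. All are negative, but those of mice 5 and 6 are close to 0 and mouse 2 alone is large. The log2 fold change was -0.16 (95% interval -0.31 to -0.0052, adjusted p = 0.582 from limma). The exact sign-flip permutation test, unadjusted over genes, gives its minimum of 0.03125 whenever all 6 differences share a sign. It therefore only restates the count of 6 of 6 mice. An exon of Lrp3 on the opposite strand overlaps one of Slc7a10, and the strand setting used for the FPKM is not given in the sources used here. The same limit holds for Slc1a2, Glul, Fgfr3, Gpc5, Dio2 and Aldh1l1, whose exons overlap those of another gene on the opposite strand. An exon of Glul also overlaps the microRNA gene Mir8114 on the same strand, which no strand setting separates. The other 30 genes have no exon overlap.

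Of the 8 genes for water, ions and junctions, 0 were called by limma, 1 (Gjb6) had an unadjusted p under 0.05, and the log2 fold changes lay between -0.0026 for Atp1b2 and 0.13 for Gjb6. Gjb6, the gap junction protein connexin, had 14.8, 17.9 and 21.7 FPKM as its lowest, median and highest control value and 17.5, 20.5 and 21.3 in the cocktail. It was higher in 5 of 6 mice and lower in mouse 6, and the groups overlapped (log2 fold change 0.13, 95% interval 0.013 to 0.25, adjusted p = 0.522 from limma). For Gja1, the other main connexin of astrocytes, the log2 fold change was 0.081 with 3 mice in each direction, and -0.0089 without mouse 1. Aqp4, the water channel of the end-feet, was at 22.0 ± 3.16 FPKM in control and 22.7 ± 2.39 in cocktail slices (SD, n = 6 each, log2 fold change 0.049, and -0.036 without mouse 1). Slc4a4, a sodium bicarbonate cotransporter, had 0.10, which rested on mouse 1 and was 0.016 without it. Mlc1 and Hepacam, partners in the membrane that act in water and ion balance, had 0.028 and 0.012 (0.016 and -0.014 without mouse 1), Atp1b2 turned to 0.012 without it, and Cldn10, a claudin, had 0.029.

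The 8 genes for lipids and secreted proteins all had log2 fold changes above 0, from 0.0038 for Mfge8 to 0.086 for F3, and 0 were called by limma, also at an unadjusted p under 0.05. Over all loci tested 54.4% were above 0, and of these 8 genes 6 were above 0 with quantile normalization, 5 with voom on recovered reads and 7 without mouse 1. Apoe had 505.5, 551 and 601 FPKM in control and 519, 556 and 608 in the cocktail, with 5 mice higher and 1 lower. The difference of Apoe was 0.034 on the log2 scale (95% interval -0.058 to 0.13, adjusted p = 0.9 from limma). Clu had 310.0, 318 and 357 FPKM in control and 308, 340 and 374 in the cocktail, again with 5 mice higher, and a log2 fold change of 0.068 (adjusted p = 0.783 from limma). Agt, at the low end, had 2.66, 2.83 and 3.27 FPKM in control and 2.26, 3.08 and 4.01 in the cocktail (log2 fold change 0.065, adjusted p = 0.885 from limma, and 0.031 without mouse 1). Mfge8, a bridge between dying cells and phagocytes, was at 60.3 ± 4.93 and 60.4 ± 4.48 FPKM (log2 fold change 0.028 without mouse 1). Acsbg1, an acyl-CoA synthetase, had a log2 fold change of 0.028, Ppap2b, a lipid phosphatase now named Plpp3, 0.048 and Fabp7, a fatty acid carrier of young glia, 0.076. Without mouse 1 the values of F3, Acsbg1 and Fabp7 were 0.024, 0.012 and -0.010.

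Among the receptor, transcription and signaling genes other than Sox9, log2 fold changes lay between -0.029 for Ntsr2, a neurotensin receptor, and 0.11 for Dio2, the enzyme that converts thyroxine to its active form. Dio2 was higher in 5 of 6 mice. Its control values were 16.4, 20.0 and 27.8 FPKM (lowest, median and highest) and its cocktail values 15.8, 23.4 and 31.6, and the largest within-mouse difference, 0.40 on the log2 scale, was again that of mouse 1 (adjusted p = 0.711 from limma, log2 fold change 0.053 without mouse 1). Bmpr1b had 2.53, 3.42 and 3.76 FPKM in control and 3.10, 3.36 and 3.70 in the cocktail (log2 fold change 0.037, adjusted p = 0.942 from limma, and -0.0375 without mouse 1). Fgfr3, a receptor for fibroblast growth factors, had 0.051 and Gpc5, a glypican of the cell surface, 0.053. Without mouse 1 Gpc5 had 0.028 and Ntsr2 0.0255. In the last group of homeostatic genes, Aldoc had 176, 190.4 and 228 FPKM in control and 189, 195 and 217 in the cocktail (log2 fold change 0.029, adjusted p = 0.921 from limma). S100b, a calcium-binding protein, had 0.069, Slc39a12, a zinc transporter, 0.032 and Aldh1l1, the folate enzyme often used to label astrocytes, -0.060. Without mouse 1 S100b had 0.0017 and Slc39a12 0.00021.

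Some of these genes hold a motif of an inducible transcription factor before their start. The stretches of 250 bases upstream of RefSeq starts (GRCm38.p6) were searched for AP-1 (TGANTCA), STAT (TTCNNNGAA) and the cAMP response element CRE (TGACGTCA), on both strands, and 33 of the 37 genes, with 41 starts, had an entry. Atp1b2, Aqp4, Sox9 and Clu had none. The full CRE was found in 1 of the 41 stretches, that of Dio2, and in 1.55% of all 32851 stretches. AP-1 was found in 2 of the 41, those of F3 and Gja1 (6.75% of all stretches). STAT was found in 6 of the 41, of Acsbg1, Agt, Aldoc, Ntsr2, Prodh and Slc1a3 (7.02% of all stretches). The 3 stretches with CRE or AP-1 are shown 5′ to 3′ because norepinephrine raises cAMP in many cells and AP-1 is formed by the Fos and Jun proteins that neuronal activity induces, with the motif in capitals. Dio2 is from chr12:90739039-90739288 (minus strand), F3, the coagulation starter tissue factor, from chr3:121723287-121723536 (plus strand) and Gja1 from chr10:56377050-56377299 (plus strand).
Dio2: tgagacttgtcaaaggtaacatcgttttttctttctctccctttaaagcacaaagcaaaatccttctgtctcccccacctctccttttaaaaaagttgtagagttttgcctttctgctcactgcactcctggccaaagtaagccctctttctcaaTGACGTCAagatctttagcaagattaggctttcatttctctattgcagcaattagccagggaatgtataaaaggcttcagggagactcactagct
F3: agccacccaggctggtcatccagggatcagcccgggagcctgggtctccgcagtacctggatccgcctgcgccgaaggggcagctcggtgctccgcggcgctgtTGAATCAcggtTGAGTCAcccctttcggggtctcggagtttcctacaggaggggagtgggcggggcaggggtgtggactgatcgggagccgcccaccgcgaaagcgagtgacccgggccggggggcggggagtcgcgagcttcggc
Gja1: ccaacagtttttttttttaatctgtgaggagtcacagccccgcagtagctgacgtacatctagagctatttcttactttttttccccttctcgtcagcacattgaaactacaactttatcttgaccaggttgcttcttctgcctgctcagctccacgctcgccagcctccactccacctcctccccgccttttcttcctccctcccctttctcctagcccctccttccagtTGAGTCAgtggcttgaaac

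The CRE of Dio2 begins 95 bases before the RefSeq start, the AP-1 letters of F3 begin 146 and 135 bases and those of Gja1 19 bases before it. The stretches of F3 and Gja1 adjoin the loci whose FPKM was measured, but that of Dio2 does not. The measured locus of Dio2 has its upstream edge at 90738438, while the stretch comes no nearer than 90739039. Its CRE thus lies farther from the measured locus than the 95 bases. The log2 fold changes of the 3 genes were 0.11, 0.086 and 0.081 (0.053, 0.024 and -0.0089 without mouse 1), and none passed the test (adjusted p = 0.711, 0.824 and 0.88 from limma). The matches describe letters in these windows only.

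The 5 reactive genes also showed 0 calls by limma, and 1 of them, Vim, had an unadjusted p under 0.05. Gfap had 42.1, 51.3 and 62.9 FPKM as lowest, median and highest control value and 41.8, 56.6 and 76.1 in the cocktail. It was higher in 4 mice and lower in 2, and the ranges overlapped (log2 fold change 0.11, 95% interval -0.046 to 0.27, adjusted p = 0.783 from limma, and 0.043 without mouse 1). Mouse 1 differed most for Gfap (from 44.5 to 62.0 FPKM), followed by mouse 3 (from 62.9 to 76.1), while mouse 5 went from 61.02 to 53.06. Vim had 13.8, 15.3 and 18.0 FPKM in control and 13.7, 17.6 and 19.2 in the cocktail, with 5 mice higher. Its 95% interval of 0.011 to 0.24 around a log2 fold change of 0.12 did not hold 0, but the adjusted p was 0.527 from limma. Serpina3n had 4.46, 4.92 and 8.39 FPKM in control and 3.597, 6.071 and 7.834 in the cocktail, a log2 fold change of 0.091 with a standard error of 0.11 (0.055 without mouse 1). Cd44 had 1.28, 1.57 and 2.50 FPKM in control and 0.967, 1.77 and 2.34 in the cocktail (log2 fold change -0.025, and -0.065 without mouse 1). Lcn2 had 0.872, 1.15 and 2.31 FPKM in control and 0.568, 0.881 and 1.66 in the cocktail (log2 fold change -0.19, 95% interval -0.52 to 0.14, adjusted p = 0.844 from limma). Lcn2 had 6 to 21 reads per library.

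**Figure D3:**
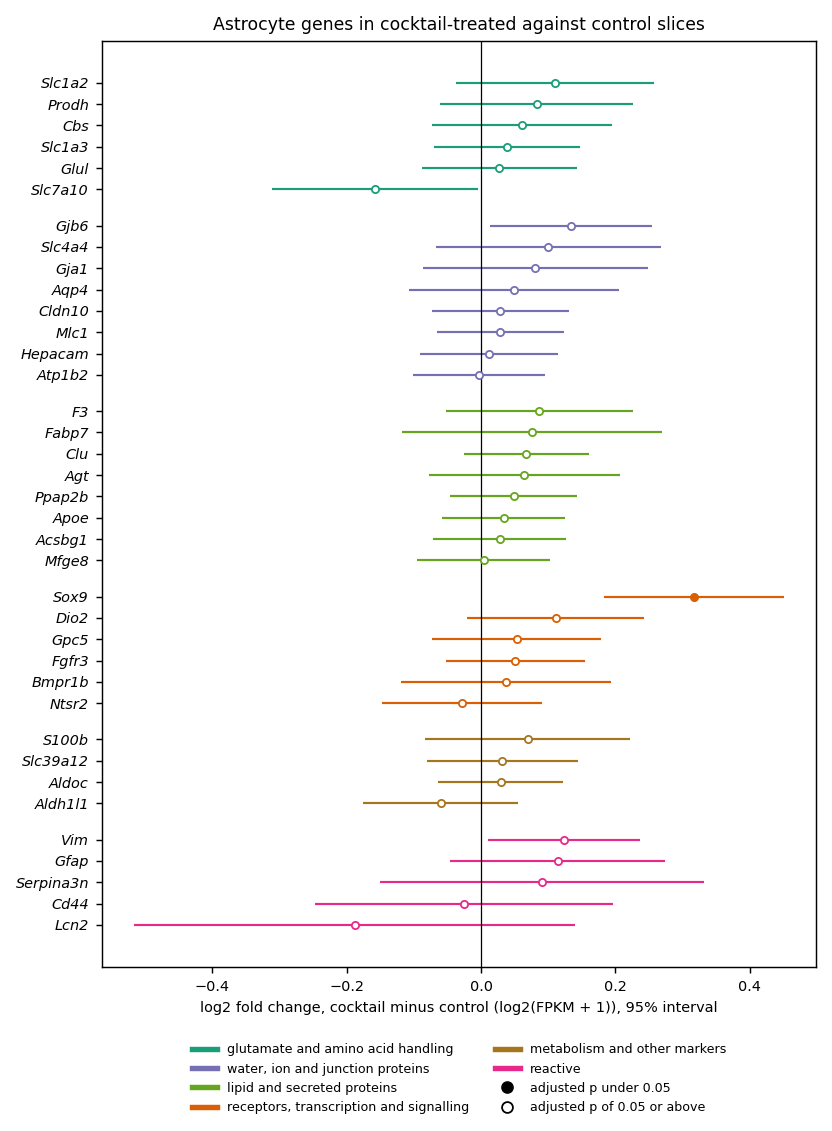
Log2 fold change (cocktail minus control, log2(FPKM + 1) scale) of the 37 astrocyte genes with 95% intervals from limma (n = 6 mice), grouped by role, with a filled point where the adjusted p is under 0.05. Sox9 is the filled point at 0.32, and the widest interval is that of Lcn2.

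Homeostatic and reactive genes were set side by side as a description. The median log2 fold change was 0.049 over the 32 homeostatic genes (28 above 0, 4 below) and 0.091 over the 5 reactive genes (3 above, 2 below), against 0.0076 over all loci tested, of which 54.4% were above 0. The homeostatic count above 0 was 23 with quantile normalization, 24 with voom on recovered reads and 24 without mouse 1. In mice 1 to 6 the median within-mouse difference was 0.16, 0.043, 0.081, 0.025, -0.067 and -0.010 for homeostatic genes. The homeostatic median was above 0 in mice 1 to 4 and below 0 in mice 5 and 6. For reactive genes it was 0.18, -0.30, 0.27, 0.10, 0.033 and -0.034. The reactive minus homeostatic difference was positive in mice 1, 3, 4 and 5 and negative in mice 2 and 6, from -0.34 to 0.19, so the mice did not share a direction. The all-loci median was also highest in mouse 1, at 0.096. Without mouse 1 the homeostatic median was 0.025 and the reactive median 0.043, against -0.013 over all loci, and without mouse 3 the reactive median was -0.0097. With voom on recovered reads the order turned, with a homeostatic median of 0.035 and a reactive median of 0.031. The reactive list had the larger errors, with a median standard error of 0.101 against 0.055 in the homeostatic list. In bulk tissue, a change in the number of astrocytes and a change in the RNA per astrocyte cannot be told apart.

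**Figure D4:**
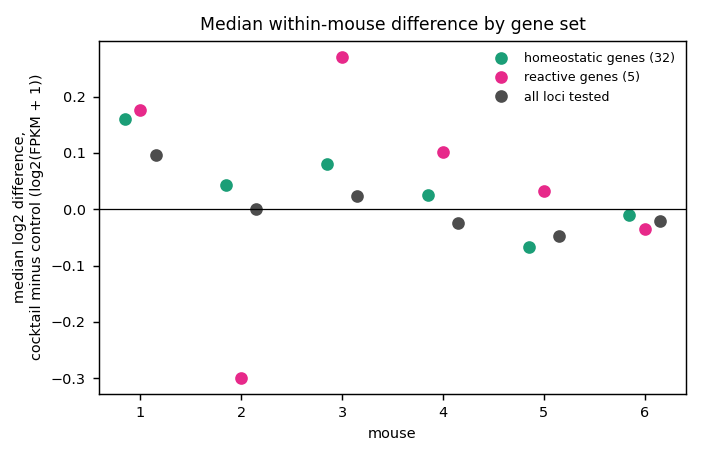
Median within-mouse difference (cocktail minus control, log2(FPKM + 1)) of the 32 homeostatic genes, the 5 reactive genes and all loci tested, for each of the 6 mice. The homeostatic median lies between -0.067 in mouse 5 and 0.16 in mouse 1, and the reactive median between -0.30 in mouse 2 and 0.27 in mouse 3.

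The intervals show which changes on the log2(FPKM + 1) scale the data leave room for. For 33 of the 37 genes the 95% interval held 0, and for 33 it lay within ± 0.3 on the log2 scale (30 of 32 homeostatic and 3 of 5 reactive genes). Apart from Sox9 the highest upper bound was 0.332, that of Serpina3n, and the lowest bound was -0.52, that of Lcn2. This scale understates the change of low genes such as Lcn2, Cd44 and Agt, so larger changes in their FPKM are possible than these bounds show. The log2 fold change of Lcn2 was -0.188 on this scale and -0.34 with a pseudocount of 0.1.

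The spread of the astrocyte genes was divided into a part between mice and a part between control and cocktail. Of the sum of squares of log2(FPKM + 1) over the 12 libraries, a median of 68.3% was between mice and 3.31% between control and cocktail, against 60.0% and 3.91% over all loci tested. With 12 libraries, 5 of the 11 degrees of freedom (45.5%) lie between mice and 1 (9.09%) between incubations, so a larger share between mice is given in advance for most genes. It was the larger one for 36 of the 37 genes and for 94.9% of all loci, and the exception was Sox9, with 40.7% between mice and 48.9% between control and cocktail. Cldn10 had 96.1% between mice, Fgfr3 92.9% and Dio2 91.7%. The share between mice was under 45.5% for 6 genes, among them Lcn2 (24.2%), Slc4a4 (32.4%), Bmpr1b (36.1%) and Slc1a2 (41.5%). Dio2 had 27.8 and 31.6 FPKM in the hemispheres of mouse 2 and 16.4 and 15.8 in those of mouse 5, while those of mouse 1 differed, at 21.1 and 28.2. Slc7a10 was highest in both hemispheres of mouse 1 and lowest in both of mouse 6 (8.22 and 8.20 FPKM). These shares describe the libraries and were not tested.

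**Figure D5:**
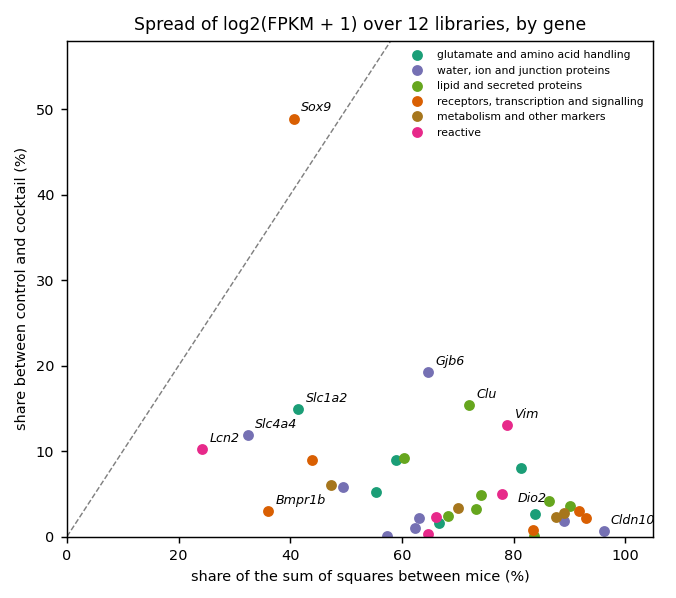
Share of the sum of squares of log2(FPKM + 1) over the 12 libraries that lies between mice (x axis, percent) and between control and cocktail (y axis, percent), 1 point per astrocyte gene, with equal shares on the dashed line. Sox9, at 40.7% and 48.9%, is the one gene above the line, and Cldn10 lies at 96.1% and 0.599%.

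Genes outside the 37 gave the setting. Of 40 other genes enriched in astrocytes (such as potassium channels and transporters of these cells), 0 were called in either direction by limma (3 at an unadjusted p under 0.05), with log2 fold changes from -0.17 to 0.17 and a median of 0.050. Lists of reactive astrocyte genes were mixed. Of 11 pan-reactive genes tested, 5 of which belong to the 37, Hspb1, a small heat shock protein, rose (log2 fold change 0.50, adjusted p = 0.038 from limma) and Cxcl10, a chemokine, fell by 1.397 on the log2 scale. Of 9 genes known from astrocytes in inflammation (A1), Gbp2, an interferon-induced GTPase, fell by 0.53 on the log2 scale (adjusted p = 0.00809 from limma). Of 7 genes known from astrocytes after ischemia (A2), Ptgs2, a cyclooxygenase, and Cd14, a receptor for bacterial lipid, rose by 1.04 each on the log2 scale. These genes are also expressed by neurons, microglia or vessels, and the medians of these 3 lists were -0.010, 0.031 and 0.020. Of 19 genes of glycogen and lactate metabolism tested, Slc2a1, the glucose transporter of vessels and astrocytes, rose from 63.5 ± 5.67 to 75.95 ± 4.28 FPKM (SD, n = 6 each, log2 fold change 0.26, adjusted p = 0.0144 from limma) in 6 of 6 mice, and the other 18 were not called.

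Markers of the other cells of the tissue were read for comparison, and 0 of them were called by limma. At an unadjusted p under 0.05 there were 3 meningeal markers, 1 of oligodendrocyte precursors and the red blood cell locus. Of the 8 oligodendrocyte markers all had log2 fold changes above 0 (median 0.11), and their summed level was 2274 to 2893 FPKM in control and 2585 to 2958 in cocktail libraries, higher in 5 of 6 mice. The 4 tested of 5 markers of meningeal fibroblasts had a median of 0.18 with sums of 11.4 to 17.9 and 14.6 to 19.6 FPKM, higher in 6 of 6 mice. The medians were -0.020 for 6 markers of excitatory neurons, 0.075 for 6 of inhibitory neurons, 0.10 for 4 of oligodendrocyte precursors, 0.025 for 8 of microglia and 0.042 for 8 of vessels. They were 0.054 for the 2 tested of 6 markers of choroid plexus and ependyma, -0.0022 for the 5 tested of 6 of hippocampus, thalamus and striatum, and 0.45 for the 1 red blood cell locus tested. No marker was at 0 in all libraries, and the part of these cells in the values of Sox9, Gfap or Vim was not tested.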

How the data were processed

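Auditory cortex of 6 mice was measured as 6 control and 6 cocktail libraries, with single reads of strand-specific poly-A RNA. The authors removed ribosomal reads with BWA 0.6.1, aligned to mm10 with TopHat 1.4.1 with 1 placement per read, and estimated the deposited FPKM per RefSeq locus with Cufflinks 1.3.0 with bias correction. The authors' deposited DESeq2 1.6.3 comparison of HTSeq counts, with mean FPKM per group, holds their own results and was not used. The methods add 1 h of rest in aCSF after incubation, which the labels do not mention.

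Reads were recovered from the Cufflinks interval, taken as 2 Poisson standard deviations (83.7% of 35887 values under 20 reads were whole to within 0.05), and cover counting error only. Loci with a mean of at least 1 FPKM were tested as log2(FPKM + 1), a scale that understates the change of low genes, with limma 3.58.1 in R 4.3.3, mouse blocked, trend in the variance and adjusted p under 0.05. Single genes also had an exact sign-flip test over 6 pairs, unadjusted. The mouse numbers come from the labels, and deviations from group means correlated at 0.216 to 0.406 within mice (median 0.337). Between mice they correlated at -0.42 to 0.445 (median -0.0714). The ranges overlap, so some pairs of different mice were as alike as pairs from the same mouse. The alternatives were no block, other scalings, pseudocounts, filters, variance models, voom on reads, and each mouse left out. On simulated data for the 12032 loci, the procedure was checked. Values of every library are given for the gene called. The next fullest set covers the reactive genes, the 5 highest and 5 lowest in control and the others among the 5 with the largest change. For these, the lowest, median and highest value per condition and the log2 fold change are given. Genes of other lists are named only where called. The genes, lists and tests were chosen with earlier results of these data known. Start coordinates count from 1 (mm10). Python 3.11.15 and matplotlib 3.10.9 drew the figures.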

Additional observations from a re-analysis of the deposited data

Results flagged for a closer look

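In 14 of 111 groups of 6 values (37 genes, each with its control FPKM, its cocktail FPKM and its within-mouse log2 differences), the highest or lowest value stood off from the rest, and chance alone flags about 5.55 groups. Mouse 1 held 9 of the 14. Its control value was low for Slc1a2 (224 FPKM against 284 to 317) and S100b (20.6 against 26.7 to 29.4) and high for Mfge8 (69.5 against 56.0 to 60.7), and its cocktail value of Slc7a10 was high (14.0 against 8.20 to 10.2). Its within-mouse difference was the largest for Sox9 (0.628 against 0.205 to 0.343), Aqp4 (0.472 against -0.115 to 0.0737), Bmpr1b (0.41 against -0.083 to 0.0132) and Slc1a3 (0.262 against -0.0933 to 0.0243), and the lowest for Ntsr2 (-0.299 against -0.0337 to 0.109). The remaining 5 were the within-mouse difference of Slc7a10 in mouse 2 (-0.544 against -0.19 to -0.00305) and of Atp1b2 in mouse 3 (0.16 against -0.0809 to 0.00476), the control FPKM of Fabp7 in mouse 3 (22.9 against 13.4 to 16.8), and Aldoc in mouse 5 in both hemispheres (228 FPKM in control against 176 to 195, and 217 in the cocktail against 189 to 199). No cause was tested.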

How the results depend on the processing

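The number of astrocyte genes called was 1, Sox9. It was 0 without the replicate block and 0 with no filter on low values, which brings 17477 loci into the adjustment, and it lay between 0 and 1 over the fits that left out a mouse. Sox9 kept its direction in all 17 alternatives (log2 fold change 0.247 to 0.339) and its call in 11, with an adjusted p from limma of 0.00604 to 0.214. It was called with a pseudocount of 0.1, both other scalings, voom, sample weights and without mouse 1 or 5. Of the 36 other genes none was called in any alternative, and 15 changed sign in at least 1, the largest of them 0.0909 in size. The number of all loci called was 180, fell to 88 without the block and ranged from 104 (without mouse 4) to 181 with a mouse left out. The homeostatic median was 0.0246 to 0.0668 and the reactive median -0.00967 to 0.142 over these fits. A mean of at least 5 FPKM gave no value for 4 genes. DESeq2 was not run. The reads per library used with voom were recovered from the Cufflinks interval and are not the HTSeq counts. Lcn2 had the fewest reads, 6 to 21 per library.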

Other observations

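On recovered reads per 1000000 reads, which carry no bias correction, the control library of mouse 1 stood less apart for the astrocyte genes. It held the lowest control value of 9 of the 37, against 17 on the FPKM scale, and the control library of mouse 6, the shallowest, held that of 14. For Sox9 the reads per 1000000 in control and cocktail were 53.5 and 64.3 in mouse 1, 51.4 and 56.6 in mouse 2, 50.1 and 57.3 in mouse 3, 56.6 and 71.0 in mouse 4, 61.5 and 73.0 in mouse 5, and 49.9 and 61.8 in mouse 6. The cocktail hemisphere was higher in all 6 mice on this scale too, and the log2 difference of mouse 1 was 0.264, within the 0.139 to 0.327 of the others.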
